A study of Homo sapiens with 4 samples.

Results

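RCM-1 cells are human and derive from a rectal tumor whose glands were still well formed. They grow as epithelial masses and can form domes, which are fluid-filled blisters of the cell sheet. The expression profile described here is that of untreated RCM-1 cells, measured on 1 of the 4 oligonucleotide arrays of the series. The members are all 54613 probe sets of that array other than 62 controls, ranked by signal. Of these, 41091 had 1 gene symbol, and they stood for 19775 genes.

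The study grew RCM-1 cells to near confluency and exposed them to methylthioacetic acid (MTA), a sulphur compound related to esters found in a pickling melon, at 1 mM. The 4 arrays were the untreated 0 h array and arrays after 6, 12 and 18 h in MTA, with further culture without MTA until 24 h after its addition. All cells were the same line and carried no engineered change that the labels name. The control condition in the methods was the solvent acetonitrile. The study named the reference of its array comparison a mock control in 1 place and the initial value in others. The sources used here do not say outright if the 0 h cells received this solvent or were grown until 24 h as well. Untreated here means without MTA. Each condition had 1 array and no replicate, so nothing was tested and the precision of all values is limited by the number of arrays. RCM-1 comes from a single tumor and was grown without stroma, so the profile speaks of this culture only.

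Signals were MAS5 intensities, which are linear values that combine the perfect-match and mismatch probes of a probe set. They ranged from 0.0437 to 20594 over the probe sets of the untreated array, with a median of 16.7 and quartiles of 3.91 and 109.6. A gene was given the signal of its brightest probe set with 1 gene symbol. Each probe set binds its target with its own affinity and MAS5 signals are not scaled to transcript length, so the order of signals between genes is not the order of their mRNA levels. Genes were therefore placed in bands of signal, and where the brightest genes are named, the order is one of signal only. Genes that mark tissues foreign to a colorectal line (neurons, blood, striated muscle, retina and sense organs, and pituitary, gonad and placenta) set the background. The 95th percentile of 111 such genes was 38.26, and a gene with a higher signal was called above background. The highest 10% of genes started at a signal of 999.

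Of the 19775 genes, 10182 (51.5%) were above background, and 1978 (10%) made up the top 10% by the way it was set. The signals of all genes fell into a dim and a bright group, and the background level lay in the trough between them. The last genes inside the level were BRICD5 (signal 38.34), IL17D (38.31) and NXPH4 (38.28), and the first outside it were KIAA1107 (38.23) and CCDC68 (38.197). Of the 111 foreign genes, 6 exceeded the level, because it is their 95th percentile. These were MBP at 147.3, TNNI3 at 102, LCK at 80.3, SYT1 at 70.99, HBB at 49.03 and CD79A at 42.4. A signal between the background level and 147.3 was thus also reached by genes of other tissues.

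**Figure D1:**
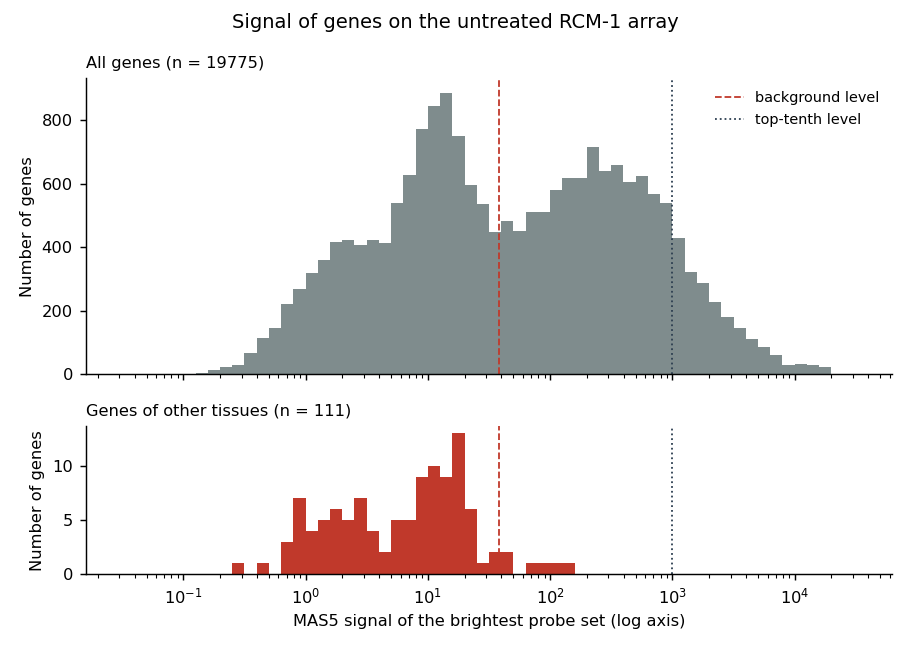
Number of genes (vertical axis) by MAS5 signal of the brightest probe set (horizontal log axis) on the untreated array, for all 19775 genes (upper panel) and for 111 genes of other tissues (lower panel). The dashed line is the background level of 38.3 and the dotted line the start of the top 10% of genes at 999. The foreign genes lie almost wholly left of the dashed line, where all genes show a trough.

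The epithelium of the colon is a single sheet of columnar cells that are renewed from stem cells at the crypt base under Wnt signals. Daughter cells become absorptive colonocytes or secretory cells such as goblet, Paneth, enteroendocrine and tuft cells, and colorectal tumors usually keep a part of this programme while Wnt signalling stays on. Simple keratins, the adhesion molecule EPCAM, villin and CDX transcription factors mark this lineage. The RCM-1 label was first set against such markers.

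All 11 colon epithelium markers were above background on the untreated array. The simple-epithelial keratins KRT8, KRT18 and KRT19 had signals of 11430.5, 13733 and 7898. KRT20, the keratin of the intestinal surface, had a signal of 6649.7, and EPCAM, the epithelial cell adhesion molecule, one of 10546. These values all lay in the top 10% of genes. VIL1, the microvillus protein villin, had signals of 2389, 1434, 80.3 and 75.5 on its 4 probe sets, all above background. CDH17, the liver-intestine cadherin, was at 3016, LGALS4, an intestinal lectin, at 2635, and CDX1, a homeobox factor of intestinal identity, at 1034. The markers near the background level were CDX2, a second factor of this kind, at 55.9 with its other probe set at 0.999, and GPA33, an antigen of the intestinal epithelium, at 56.7.

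Markers of other cell types were mostly at background level. Of 4 goblet markers only TFF3, a trefoil peptide of mucus, was above it at 969.8, while FCGBP was at 16.7, MUC2 at 4.21 and CLCA1 at 4.11. The enteroendocrine markers CHGA and CHGB had signals of 7.203 and 13.6, the Paneth defensins DEFA5 and DEFA6 1.01 and 1.84, and the tuft markers POU2F3 and TRPM5 8.59 and 0.857. None of these 6 was above background. Among 5 fibroblast markers COL1A1 was above the level at 58.4, with its 4 other probe sets between 3.16 and 7.76, and COL1A2 (1.74), COL3A1 (6.81), DCN (23.5) and LUM (11.4) were not. PECAM1, an endothelial marker, was just above the level at 41.1, with VWF at 3.395 and CDH5 at 0.524. Of the leukocyte markers PTPRC (10.2), CD3E (19.8) and CSF1R (6.15) were below the level, and CD79A, itself one of the 6 foreign genes past it, was at 42.4. The smooth muscle markers MYH11, DES and ACTG2 had signals between 14.3 and 16.4. The markers did not go against the label of a colorectal epithelial line.

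**Figure D2:**
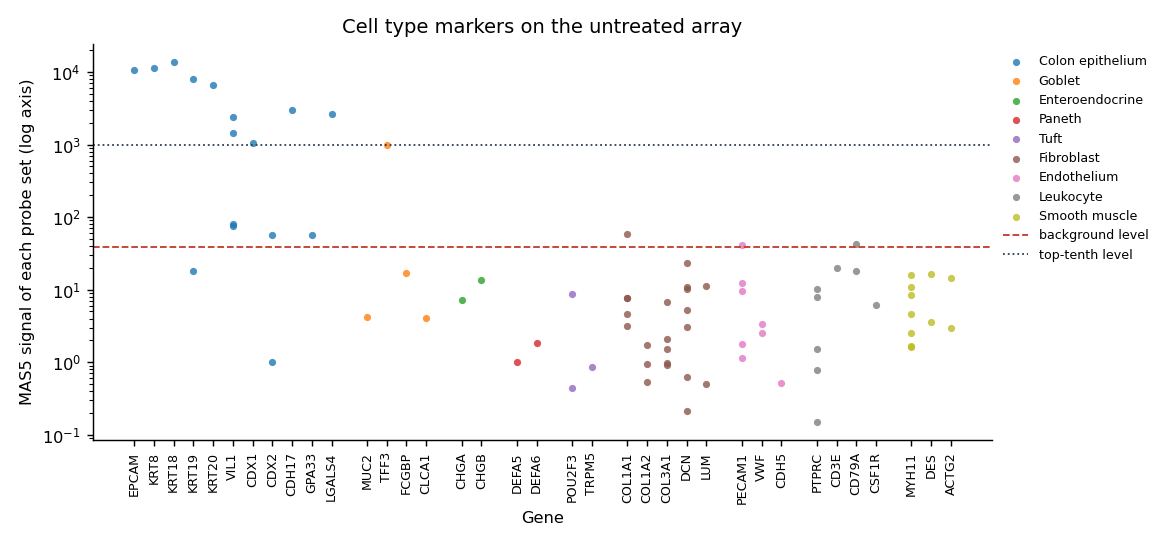
MAS5 signal of every probe set (points, log axis) of the markers of 9 cell types on the untreated array, with the background level (dashed) and the start of the top 10% of genes (dotted). All 11 colon epithelium markers have a probe set above the dashed line, and of the other markers only TFF3, COL1A1, PECAM1 and CD79A do.

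The brightest genes of the array were those of protein synthesis, the cytoskeleton and respiration. Of the 25 brightest genes, 19 encoded ribosomal proteins, as did 34 of the brightest 50 and 45 of the brightest 100. The other 6 of the 25 were ACTB, beta-actin of the cytoskeleton, at 17993, HUWE1, a ubiquitin ligase, at 17778, the mitochondrially encoded cytochrome oxidase gene COX2 at 17405, TPT1, a growth-related tubulin-binding protein, at 17333, EEF1A1, an elongation factor of translation, at 16194, and HSP90AA1, a cytosolic chaperone, at 15861. HUWE1 owed its place to a probe set of the kind marked x, whose probes can match other transcripts, and its other probe sets had signals from 3.27 to 893. Such probe sets stood for 36 of the 100 brightest genes and for 5.62% of all genes. GAPDH, the glycolytic enzyme often used as a reference, had a signal of 10570.5. All 41 cytosolic ribosomal protein genes measured were above background and 40 were in the top 10%, with a median signal of 14422. The exception was RPLP2, with its probe sets at 143 and 10.9.

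The signal was concentrated in few probe sets. The brightest 547 probe sets, 1% of all, held 34.996% of the summed signal, and the brighter 50% of probe sets held 98.96%. Among genes annotated as protein-coding in RefSeq, 59% of 16521 were above background, and among long noncoding RNAs 11.3% of 2658. MALAT1, an abundant nuclear noncoding RNA, had a signal of 12666.

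Gene lists from textbook knowledge were used to describe what the line expressed. The 27 lists held 940 symbols, of which 839 were measured, and the others were not analysed here. Each list is given below by the number of measured members above background and in the top 10%, beside the 51.5% and 10% of all genes and the median signal of 44.3 over all genes. The members measured are protein-coding, and of all protein-coding genes 59% were above background, with a median signal of 87.1. The share also rises with the number of probe sets of a gene, for which the lists were not matched. With each gene taken by its dimmest probe set, the level was set anew from the foreign genes measured in that way. It was then 21.08, and 36.2% of all genes were above it. The counts of 8 lists fell by more than 1.5 times. These were 15 of 34 intestinal transcription factors, 16 of 34 stem cell and Wnt genes, 1 of 7 CEACAM genes, 23 of 50 nutrient carriers, 8 of 32 receptor kinases and ligands, 22 of 45 oncogenes and signal relays, 15 of 33 tumor suppressor and repair genes and 2 of 28 mesenchymal genes.

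**Figure D3:**
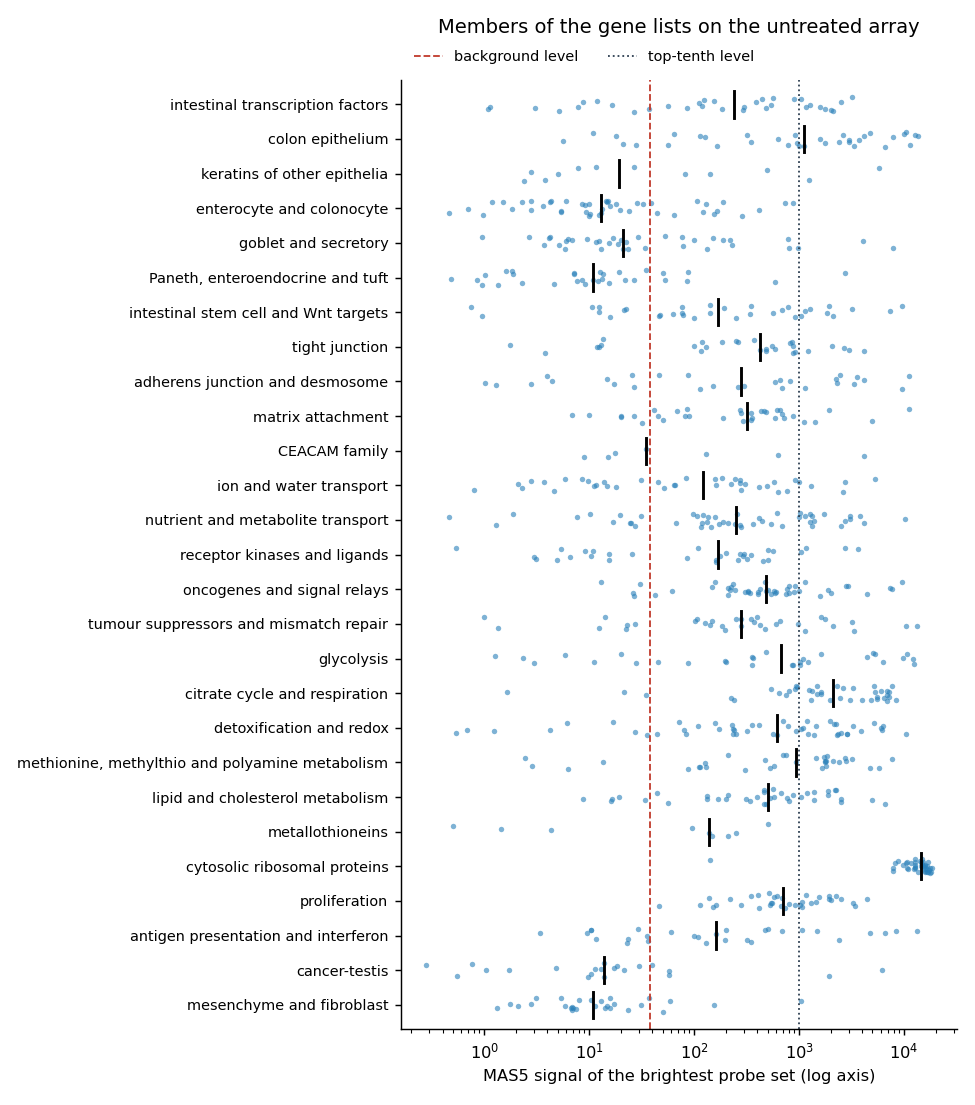
MAS5 signal of the brightest probe set (horizontal log axis) of every measured member (points) of the 27 gene lists on the untreated array, with each list's median (black bars), the background level (dashed) and the start of the top 10% of genes (dotted). Ribosomal proteins lie at the right end, the lists of respiration and colon epithelium have medians above 999, and the lists of other keratins, enterocytes, goblet cells, Paneth, enteroendocrine and tuft cells, CEACAM genes, cancer-testis genes and mesenchyme have medians left of the dashed line.

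Structural genes of the colon epithelium were largely detected. Of 35 members, 30 (85.7%) were above background and 19 (54.3%) in the top 10%, with a median signal of 1105. Beside the keratins and EPCAM, LGALS3, a lectin that binds galactosides, had a signal of 12645 and TSPAN8, a tetraspanin of digestive tumors, one of 9893. EZR, the ezrin that ties membranes to actin, was at 4746. Not above background were PHGR1 at 5.63, CDHR5, a cadherin of microvillus tips, at 27.97, AGR3 at 17.8, ESPN, an actin bundler, at 10.8, and TM4SF4 at 21.2.

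Keratins of other epithelia were for the most part at background level. Of 12 measured, 5 (41.7%) were above it and 2 in the top 10%, and by the dimmest probe set the 41.7% lay above the 36.2% of all genes. KRT23, a keratin reported in colorectal tumors, was at 5737, KRT10, a keratin of suprabasal skin, at 1256, KRT80 at 499.9 and KRT15 at 141. KRT7, a keratin of upper digestive and ductal epithelia, had a signal of 82.4 on its brightest probe set and of 0.608 to 31.6 on the other 3. The squamous keratins KRT5, KRT14, KRT13, KRT16 and KRT4 had signals of 7.74, 11.7, 26.9, 3.82 and 2.79, and the skin keratins KRT1 and KRT2 had signals of 2.41 and 5.05.

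Transcription factors of the intestine were detected in 24 of 34 cases (70.6%), and 9 were in the top 10% (median 238.3). TCF7L2, the partner of beta-catenin in Wnt target genes, was above background on all 7 probe sets and reached 3197. The epithelial ETS factors EHF and ELF3 had signals of 2492 and 1774, the crypt factor SOX9 2095 and the proliferative-zone factor KLF5 2022. ZNF217 was at 1568, GATA6, a factor of endodermal tissue, at 1282, and HES1, the effector of Notch that keeps progenitors from the secretory fate, at 1161. Factors of secretory cells were split. KLF4, a factor of goblet cell maturation, was at 895 with its other probe set at 66.7, FOXA2 at 183 and FOXA3 at 119.9. ATOH1, which starts the secretory fate, had a signal of 3.06, and SPDEF, which matures goblet cells, one of 37.1, and neither was above the level. GATA4 at 26.7, NR5A2 at 16.4, ISX at 11.8, PDX1 at 7.88, CREB3L3 at 1.15 and MAF at 5.17 were also not above it, and several of these are factors of the small intestine.

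Genes of differentiated absorptive cells were mostly at background. Of 46 enterocyte and colonocyte genes, 13 (28.3%) were above background and none was in the top 10%, with a median signal of 13.1. Those detected included CDKN1C, an inhibitor of cyclin-dependent kinases, at 876, PRAP1 at 728, DPP4, a peptidase of the brush border, at 412, and CA2, a carbonic anhydrase, at 285. FABP6, a bile acid binding protein, was at 189.5, GUCY2C, the receptor of guanylin, at 165, VIPR1, a receptor of vasoactive intestinal peptide, at 154, and CEACAM1 at 129. Brush-border hydrolases were split. DPP4 was above background on all 3 probe sets. The placental-type phosphatases ALPP and ALPG were at 64.6 and 38.8, both within the range that foreign genes reached, and ALPG was just inside the level. The hydrolases that follow were at background. ALPI, the intestinal alkaline phosphatase, had a signal of 2.302 and ALPL, the tissue-nonspecific form, one of 9.32. The disaccharidases SI, LCT, MGAM and TREH had signals of 8.54, 15.7, 1.17 and 0.971, and the peptidases ANPEP and MME signals of 10.02 and 1.82.

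Goblet and secretory genes gave 14 of 37 above background (37.8%) and 2 in the top 10% (median 21.01), and by the dimmest probe set the 37.8% lay above the 36.2% of all genes. LCN2, a siderophore-binding protein of inflamed epithelium, was at 7845 and SLPI, a protease inhibitor of mucosal fluids, at 4043. The membrane mucins MUC20 and MUC13 were at 797 and 777. SPINK4, a goblet peptide, was at 231, TFF2, a trefoil peptide of the stomach, at 219.6, and CXCL8, a chemokine for neutrophils, at 190.0. The gel-forming mucins were all at background, with MUC2 at 4.21, MUC5AC at 20.1, MUC5B at 2.66 and MUC6 at 3.75. Of the other membrane mucins, MUC3A was at 29.1, MUC17 at 21.01, MUC4 at 15.3 and MUC12 at 6.896. MUC1 was above the level on 2 of its 3 probe sets and reached 132.

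The promoters of LCN2 and MUC2 are shown because these secretory genes lay in different bands and shared a motif of intestinal factors. Promoters are given as the 250 bases before and 50 bases after the start of a gene, from the first window that RefSeq (GRCh38.p14) lists for it. The windows of LCN2 (chr9:128149203-128149502, plus strand) and MUC2 (chr11:1074624-1074923, plus strand) both held the letters of a CDX site, TTTATGG on either strand, which 250 of 13456 promoters of protein-coding genes (1.86%) held. It is read here as CCATAAA, in capitals, starting 31 bases before the start of LCN2 and 177 bases before that of MUC2, and shares the letters ATAAA with the TATA box.
LCN2: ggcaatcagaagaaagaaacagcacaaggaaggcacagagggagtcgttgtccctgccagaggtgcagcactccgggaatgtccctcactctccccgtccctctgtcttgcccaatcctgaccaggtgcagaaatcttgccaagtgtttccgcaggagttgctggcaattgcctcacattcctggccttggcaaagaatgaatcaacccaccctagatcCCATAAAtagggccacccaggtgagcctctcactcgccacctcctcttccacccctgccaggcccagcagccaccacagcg
MUC2: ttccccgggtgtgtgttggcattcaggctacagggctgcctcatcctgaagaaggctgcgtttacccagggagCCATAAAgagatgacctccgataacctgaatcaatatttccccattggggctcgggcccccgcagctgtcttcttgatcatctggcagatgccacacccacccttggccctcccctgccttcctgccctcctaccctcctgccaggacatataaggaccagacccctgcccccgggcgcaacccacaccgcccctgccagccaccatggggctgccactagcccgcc
The signal was 7845 for LCN2 and 4.21 for MUC2, so these genes lay in the top 10% and at background. A match of letters is a description and not a binding site.

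Paneth, enteroendocrine and tuft cell genes were above background in 6 of 31 cases (19.4%), with a median of 10.8. LYZ, the antibacterial lysozyme, was the member in the top 10% at 2721 with both probe sets above the level. MMP7, a matrix protease of Paneth cells that colorectal tumors also make, was at 595. PAX6 at 87.7, PTGS1, a prostaglandin synthase, at 84.6, AVIL at 52.8 and DCLK1 at 50.2 stood within the range that foreign genes reached. Most genes of these cells were at background. PLA2G2A, an antibacterial phospholipase, had a signal of 12.1, and the granule proteins SYP, SCG2 and SCG5 of endocrine cells had signals of 12.7, 2.28 and 19.1.

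Stem cell genes and Wnt targets were above background in 26 of 34 cases (76.5%) with 9 in the top 10% (median 167.0). CTNNB1, beta-catenin, was at 9573 and above the level on all 3 probe sets. MYC, an oncogene and Wnt target, had a signal of 7421. SOX4, a factor of tumor progenitors, was at 1919.9, ASCL2, a stem cell factor of the crypt, at 1860.4, ZNRF3, a ligase that removes Wnt receptors, at 1271, and CCND1, cyclin D1, at 1148. Of these, ASCL2 was seen on 1 of its 2 probe sets, with the other at 25.1. LGR5, the receptor that marks crypt stem cells, was at 46.4 and 13.9, and AXIN2, the feedback inhibitor of the pathway, at 906 on 1 of 4 probe sets. OLFM4, a stem cell marker of the intestine, was at 0.954, PROM1 at 15.7, SMOC2 at 10.7, TNFRSF19 at 21.3, MSI1 at 0.755, APCDD1 at 12.5 and TERT, the telomerase enzyme, at 12.3. APC, the scaffold of the complex that destroys beta-catenin, was at 22.3 on the brightest of 5 probe sets, none above background.

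Epithelial cells are joined from the top of their sides downwards by tight junctions, which seal the sheet, adherens junctions, which tie actin belts together, and desmosomes, which tie keratins. RCM-1 expressed genes of all these junctions. Of 29 tight junction genes, 23 (79.3%) were above background and 5 in the top 10% (median 428.5). TJP1, the scaffold ZO-1, was at 4148, OCLN, occludin, at 2697 on all 4 probe sets above the level, and PRKCI, a kinase of cell polarity, at 2049. The claudins, whose mix sets what a junction lets through, differed. CLDN7 had a signal of 2981, CLDN1 of 1224, CLDN3 of 919, CLDN12 of 849 and CLDN2, which forms pores for cations, of 819. CLDN4, a sealing claudin, was at 484, CLDN15 at 117 and CLDN23 at 100.4. CLDN18 of the stomach and lung was at 12.97 and CLDN8 at 1.76, so 8 of the 10 listed claudins measured were above background. Claudins outside the list were not counted. MARVELD2, tricellulin, was at 877 and PARD6B, a polarity protein, at 876. The endothelial-type adhesion molecules JAM2 and JAM3 were at 3.82 and 12.4, CGNL1 at 13.5 and MPDZ at 11.9.

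Adherens junction and desmosome genes were above background in 19 of 28 cases (67.9%), with 9 in the top 10% (median 280.1). CDH1, the E-cadherin of epithelia, had a signal of 3338, with the catenins CTNNB1 at 9573, CTNNA1 at 2300.5 and JUP at 3548. PERP, a desmosomal membrane protein, was at 11128, DSP, desmoplakin, at 4185, DSG2, the desmoglein of simple epithelia, at 2429 and VCL, vinculin, at 2227. Of counterparts from other tissues, CDH3, the P-cadherin, was at 153, and DSG3, a desmoglein of stratified epithelia, was just above the level on both probe sets, at 45.97 and 39.01. Members at background included these. CDH2, the N-cadherin of nerve and mesenchyme, was at 14.8, CDH11 at 2.77 and CTNNA2, the neural catenin, at 1.28. The skin forms DSG1, DSC1 and DSC3 had signals of 3.95, 1.01 and 25.4, and the nectins NECTIN3 and NECTIN4 had signals of 26.9 and 17.2.

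Matrix attachment genes were above background in 28 of 34 cases (82.4%), with 5 in the top 10% (median 318.3). CD9, a tetraspanin, was at 11119.7, ITGB1, the beta chain shared by many integrins, at 4973, and SDC4, a heparan sulfate proteoglycan, at 1922. The collagen and laminin receptors ITGA2 and ITGA6 were at 1109 and 1414, ITGAV at 879, ITGB5 at 726 and CD151 at 686. CD44, the hyaluronan receptor, reached 344, with 6 of its 13 probe sets above background and the lowest at 0.299. The integrins of blood cells and platelets in the list were at background, with ITGAM at 19.9, ITGB7 at 26.5, ITGA4 at 6.88 and ITGB3 at 20.1. ITGA1, a collagen receptor, was at 31.9 and COL4A1, a basement membrane collagen, at 9.88.

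The CEACAM genes encode adhesion molecules of the immunoglobulin family, of which CEACAM5 is the carcinoembryonic antigen measured in colorectal cancer. Of 7 measured, 3 (42.9%) were above background, and 4 when neuron or blood genes were left out of the background, which then put the family above the share of all genes. CEACAM6 had a signal of 4158 with its other probe set at 3483, CEACAM5 of 632 and 4.82, and CEACAM1 of 129 on the brightest of 5 probe sets, 4 of them above the level. The members of granulocytes, CEACAM3, CEACAM4 and CEACAM8, were at 34.8, 17.4 and 8.93, and CEACAM7, which normal colonocytes express, was at 14.98. The family shares sequence, so probe sets can also bind related members.

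The promoters of CEACAM6 (chr19:41755280-41755579, plus strand), CEACAM5 (chr19:41708376-41708675, plus strand), CEACAM1 (chr19:42528432-42528731, minus strand) and CEACAM7 (chr19:41688221-41688520, minus strand) are shown because these close relatives differed in band. Capitals mark the E-box CACGTG, which reads the same on both strands.
CEACAM6: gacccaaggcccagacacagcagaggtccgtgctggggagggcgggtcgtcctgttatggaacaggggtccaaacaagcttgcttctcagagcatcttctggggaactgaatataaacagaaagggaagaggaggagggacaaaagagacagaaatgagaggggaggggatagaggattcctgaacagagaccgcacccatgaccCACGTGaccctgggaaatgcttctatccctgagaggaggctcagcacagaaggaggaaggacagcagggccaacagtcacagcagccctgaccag
CEACAM5: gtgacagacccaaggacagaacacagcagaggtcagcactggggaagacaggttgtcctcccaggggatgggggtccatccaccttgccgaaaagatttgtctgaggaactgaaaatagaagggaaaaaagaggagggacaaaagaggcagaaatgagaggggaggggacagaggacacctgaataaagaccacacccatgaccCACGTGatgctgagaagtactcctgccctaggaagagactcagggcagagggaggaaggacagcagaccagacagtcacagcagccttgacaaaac
CEACAM1: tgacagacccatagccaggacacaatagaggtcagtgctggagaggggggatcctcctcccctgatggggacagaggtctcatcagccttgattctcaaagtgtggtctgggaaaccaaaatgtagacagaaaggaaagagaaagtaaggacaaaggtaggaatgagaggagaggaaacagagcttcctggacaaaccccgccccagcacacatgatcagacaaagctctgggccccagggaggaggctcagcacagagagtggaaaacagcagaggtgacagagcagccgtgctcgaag
CEACAM7: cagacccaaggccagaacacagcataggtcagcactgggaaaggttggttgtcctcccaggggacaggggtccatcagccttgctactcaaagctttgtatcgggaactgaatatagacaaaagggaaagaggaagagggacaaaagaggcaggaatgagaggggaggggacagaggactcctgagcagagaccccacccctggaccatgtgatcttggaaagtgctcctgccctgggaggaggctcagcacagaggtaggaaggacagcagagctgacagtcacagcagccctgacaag
CEACAM6 and CEACAM5 held the E-box 45 and 46 bases before the start, and the other 5 members had none in this window. Among promoters of protein-coding genes, 1230 of 13456 (9.14%) held it. CEACAM5 and CEACAM7 were identical at 249 of 306 aligned positions (81.4%) and CEACAM6 and CEACAM7 at 243 of 302 (80.5%), while CEACAM5 and CEACAM6 shared 230 of 308 (74.7%). The pairs most alike in sequence thus joined members above background with a member at background. CpG pairs were rare in all 7 windows, with none at a ratio of observed to chance CpG of 0.6 or more.

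Transport of salt and water across the sheet is the work by which domes fill. In the colon a sodium pump at the base draws sodium in through apical channels and exchangers, and chloride leaves through apical channels. Of 40 ion and water transport genes, 25 (62.5%) were above background and 5 in the top 10% (median 120.3). The pump's beta subunits ATP1B3 and ATP1B1 had signals of 5255 and 2756 and the nervous tissue form ATP1B2 one of 11.5. FXYD3, a modulator of the pump, was at 1003. SLC12A2, the basal cotransporter that loads the cell with chloride, was at 1289, KCNE3, the subunit of the basal potassium channel of colon crypts, at 2636, and KCNK1, a potassium channel, at 913. SCNN1A, the alpha subunit of the epithelial sodium channel, was at 765 on 1 of 3 probe sets, while SCNN1B and SCNN1G, its beta and gamma subunits, were at 2.28 and 8.55. ATP2B1, a calcium pump, was at 623. CFTR, the apical chloride channel, was above the level on 1 of 6 probe sets, at 51.7. Among anion exchangers, SLC26A2, a sulfate carrier of the colon, was at 161 with all 3 probe sets above the level and SLC26A6 at 45.3, while SLC26A3, the chloride exchanger of surface cells, was at background at 17.8. The sodium-proton exchangers SLC9A2 and SLC9A3 were at 31.4 and 4.66. Of the bicarbonate transporters, SLC4A7 was above background at 224 on 1 of 4 probe sets and SLC4A2 at 64.8, and SLC4A1 and SLC4A4 were not, at 14.7 and 11.002.

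Nutrient and metabolite transporters were above background in 39 of 50 cases (78%), with 15 in the top 10% (median 252.7). SLC25A5, the mitochondrial exchanger of ADP and ATP, was at 10140.1, TFRC, the transferrin receptor, at 4164, and SLC2A1, the glucose carrier GLUT1, at 3833. The glutamine carriers SLC38A1 and SLC38A2 were at 3035 and 3031, SLC7A1, the carrier of cationic amino acids, at 2758. SLC39A14 and SLC30A1, which bring zinc into and out of the cell, were at 2530.1 and 1734. Carriers of the absorptive intestine and liver fell on both sides of the level. SLC5A1, the sodium-glucose carrier of the brush border, was at 121 on the brighter of its 2 probe sets, both above the level, SLC15A1, the peptide carrier, at 107 on 1 of 2 and SLC46A1, the folate carrier, at 117 with 3 of 4 above it. SLCO1B3, a carrier of hepatocytes, was at 1327. At background were the carriers that follow. The glucose and fructose carriers SLC2A2 and SLC2A5 had signals of 0.465 and 19.5, the amino acid carriers SLC6A19 and SLC6A14 27.4 and 10.3, and SLC3A1, a subunit of the cystine carrier, 24.6. SLC5A8, the sodium-coupled carrier of butyrate, was at 1.896, SLC40A1, the iron exporter, at 31.2, and SLC47A1 at 1.29.

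Receptor tyrosine kinases and their ligands were above background in 20 of 32 cases (62.5%), with 4 in the top 10% (median 169.0). By the dimmest probe set of each gene 8 of 32 (25%) were above the level set anew for that measure, 21.08. The list then lay below the 36.2% of all genes. MET, the receptor of hepatocyte growth factor, had a signal of 3662 with all 4 probe sets above the level. EREG, a ligand of EGFR, was at 2734, VEGFA, the angiogenic factor, at 1167, and ERBB3 at 1052. EPHA2 was at 562, FGFR4 at 505, ERBB2 at 499.9 on 1 of 3 probe sets, and IGF1R at 458. EGFR, the receptor that colorectal therapy antibodies bind, was above background on 3 of 9 probe sets and reached 346. Receptors of mesenchyme, vessels and neural lineages were split as well. FGFR1 was above background on 6 of 7 probe sets, at 159.9. AXL was at 175 and the vessel receptor FLT1 at 109.6, each on 1 probe set, with the next at 3.42 and 9.597. Members at background included these. PDGFRA and PDGFRB had signals of 5.35 and 3.13, KIT of 0.5404, KDR of 4.96, RET of 15.6, ALK of 9.11, ERBB4 of 15.5 and FGFR2 of 25.8.

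Oncogenes and signal relays were above background in 41 of 45 cases (91.1%) with 10 in the top 10% (median 486.3). Beside CTNNB1 and MYC, RHOA and RAC1, small GTPases that shape actin, were at 7695 and 4475. YAP1, the effector of the Hippo pathway, was at 2896, CDK4, the kinase that cyclin D1 binds, at 2823, and MCL1, an inhibitor of apoptosis, at 1879. The 4 members at background were MYCN, the MYC relative of neural tumors, at 26.1 on the brightest of 10 probe sets, ETV1 at 12.9, WWTR1, the relative of YAP1 called TAZ, at 30.3, and BCL2, the inhibitor of apoptosis, at 26.7.

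Tumor suppressor and mismatch repair genes were above background in 26 of 33 cases (78.8%), with 8 in the top 10% (median 282.5). B2M, the light chain of class I molecules, was at 13439 and TGFBR2, a receptor of TGF-beta often mutated in mismatch-repair-deficient tumors, at 3367. CDKN1B, a kinase inhibitor, was at 1764, MSH6, a mismatch repair protein, at 1609, and RB1, the brake on cell division, at 1133. SMAD4, the shared partner of TGF-beta signals, was at 374 with 2 of 5 probe sets above the level and the lowest at 0.486. Beside APC, 6 members were at background, namely AMER1 at 22.7, NF1 at 12.3, SFRP1, a Wnt antagonist often silenced in colorectal tumors, at 14.01, DCC at 1.34, BAX, which promotes apoptosis, at 27.2, and MGMT, which repairs alkylated guanine, at 0.987. An mRNA signal says nothing of mutations in these genes, which were not analysed here.

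Metabolic genes were mostly above background. Of 30 glycolysis genes, 23 (76.7%) were above background and 13 in the top 10% (median 668.7). PGK1 had a signal of 12360.1 with all 6 probe sets above the level, LDHA, the muscle-type lactate dehydrogenase, of 12309.8 and LDHB, the heart type, of 9827. TPI1 was at 6248, ALDOA at 5334, PGAM1 at 5098 and ENO1 at 4414, with the dimmest of the 4 ENO1 probe sets at 1.59. Of forms typical of other tissues, ALDOC of the brain was at 201, ENO2 of neurons at 87.2 and ENO3 of muscle at 44.9, all above background. ENO2 and ENO3 stood within the range that foreign genes reached, and the other probe set of ENO3 was at 6.19. The 7 members at background were HK3 of white blood cells at 1.26, the sperm forms PGK2, GAPDHS and LDHC at 19.9, 5.84 and 27.6, PGAM2 of muscle at 3.005, PKLR of liver and red cells at 2.35, and PDK4, which blocks pyruvate oxidation in fasting, at 11.2.

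The promoter of LDHA (chr11:18394313-18394612, plus strand) is shown for its pair of E-boxes, in capitals, starting 185 and 87 bases before the start.
LDHA: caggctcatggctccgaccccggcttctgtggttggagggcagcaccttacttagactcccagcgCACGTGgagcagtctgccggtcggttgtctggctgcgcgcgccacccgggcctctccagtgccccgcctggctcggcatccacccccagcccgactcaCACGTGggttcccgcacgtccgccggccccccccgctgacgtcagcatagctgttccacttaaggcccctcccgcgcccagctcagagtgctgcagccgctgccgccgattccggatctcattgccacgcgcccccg
An E-box was held by 5 of the 30 glycolysis promoters (16.7%), beside 9.14% of all promoters of protein-coding genes. Other lists lay on both sides of this share. It was 17.1% in ion and water transport, 16.1% in lipid and cholesterol metabolism and 28.6% in the CEACAM family. In cancer-testis genes, most of which were at background, it was 26.3%. Lower shares were found in nutrient transport (9.76%), retina and sense organ genes (9.52%), matrix attachment (7.14%), tumor suppressor and mismatch repair genes (6.67%), ribosomal proteins (5.41%) and receptor kinases and ligands (3.7%). At LDHA, the signal of 12309.8 came from 1 probe set.

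Citrate cycle and respiratory chain genes were above background in 37 of 40 cases (92.5%), and 28 (70%) were in the top 10%, with a median signal of 2118. Cytochrome oxidase subunits COX7C, COX5A and COX6C had signals of 8345, 7654 and 7146. MDH2, the mitochondrial malate dehydrogenase, was at 7235, CYCS, cytochrome c, at 6913, UQCRQ of the third complex at 6864, and the ATP synthase subunits ATP5MC3 and ATP5F1A at 6916 and 6473. The members at background were PCK1, the gluconeogenic enzyme of liver and kidney, at 1.64, PC, pyruvate carboxylase, at 21.6, and COX4I2, an isoform of the lung, at 34.7.

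Detoxification and redox genes gave 41 of 49 above background (83.7%) and 21 in the top 10% (median 613.6). TXN, thioredoxin, was at 10493, SOD1, superoxide dismutase, at 6261, GPX2, the glutathione peroxidase of the gut, at 6199, and PRDX1, a peroxiredoxin, at 6053. GSTP1, a glutathione transferase, was at 5184 and NQO1, a quinone reductase, at 3929.7. TALDO1 was at 3275 and PRDX2 at 2856. Enzymes of drug metabolism in gut and liver fell on both sides of the level. CYP3A5 was at 236 with 3 of 4 probe sets above it, the sulfotransferase SULT1A1 at 698 on an x-kind probe set and CYP2S1 at 80.7. The 8 members at background follow. CYP1A1 was at 0.685, CYP2W1 at 17.03, the glucuronosyltransferases UGT1A6 and UGT2B17 at 4.19 and 0.532, ADH1C at 1.24 and GSTA1 at 27.1. The aldo-keto reductases AKR1B10 and AKR1C4 were at 6.11 and 35.5.

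Methionine, methylthio and polyamine genes, among them those of methylthioadenosine salvage, gave 29 of 33 above background (87.9%) and 16 in the top 10% (median 930.1). Whether any of their products acts on MTA was not tested. ODC1, the first enzyme of polyamine synthesis, had a signal of 4705, OAZ1, its antizyme, of 7658 and SAT1, which acetylates polyamines for export, of 5809.8. AHCY, which clears adenosylhomocysteine, was at 3189, and MAT2A, the methionine adenosyltransferase of cells other than hepatocytes, at 2827. The folate enzymes MTHFD2, MTHFD1 and SHMT2 were at 2731, 2425 and 2095. MTAP, the first enzyme of methylthioadenosine salvage, reached 308, with 4 of 6 probe sets above the level and the lowest at 4.94. The liver enzymes MAT1A and BHMT were at background, at 2.43 and 2.85, as were CBS, which leads homocysteine to cysteine, at 6.34, and SHMT1 at 13.6.

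Lipid and cholesterol genes were above background in 33 of 38 cases (86.8%), with 12 in the top 10% (median 503.7). FABP5, a fatty acid binding protein, was at 6654, SCD, the desaturase of stearate, at 4935, and the sterol enzymes IDI1, SQLE and FDPS at 2523, 2522 and 2185. ACLY, which makes cytosolic acetyl-CoA, was at 2271, INSIG1, the sterol-regulated retention protein, at 1881, and ACSL5 at 1873. PTGS2, the inducible prostaglandin synthase often raised in colorectal tumors, was at background at 16.3, as were PLIN2, which coats lipid droplets, at 8.72, MOGAT2, which rebuilds dietary fat, at 16.6, SOAT1 at 19.4 and MVD at 33.8.

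Metallothioneins bind zinc and copper, and 6 of 9 measured were above background with none in the top 10%. MT2A was at 511, MT1X at 249, MT1H at 209, MT1F at 147, MT1G at 139.8 and MT1E at 95.1, while MT1M was at 0.506, MT3 of the brain at 4.34 and MT4 of squamous epithelia at 1.46. The genes are close copies of each other, and the readings above background came from x-kind probe sets, without which 0 of 4 were above background, so the level of a single copy is uncertain.

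Proliferation genes were above background without exception, 36 of 36, with 15 in the top 10% (median 709.3). PCNA, the sliding clamp of DNA replication, was at 4479, the ribonucleotide reductase subunits RRM2 and RRM1 at 3443 and 2019, TYMS, thymidylate synthase and the target of fluorouracil, at 3298, and the helicase subunits MCM6 and MCM3 at 2535 and 1911. GMNN, which limits licensing of origins, was at 2248 and CDK1, the mitotic kinase, at 1908. On a bulk array fewer cells of a kind and less RNA per cell cannot be told apart.

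Antigen presentation and interferon genes were above background in 19 of 29 cases (65.5%), with 7 in the top 10% (median 160.2). B2M was at 13439, the class I genes HLA-B, HLA-C, HLA-F and HLA-E at 8437, 6616, 2398 and 1493, IFI27, an interferon-induced gene, at 4719, PSMB8, an immunoproteasome subunit, at 1056, and IFI6 at 681. Class I genes are close copies of each other, so their probe sets can bind related members. Of the class II genes, HLA-DMA was above background at 195 and HLA-DRB1 at 60.2 on an x-kind probe set. The class II genes HLA-DRA, HLA-DPA1 and HLA-DPB1 were at background at 3.42, 10.3 and 11.6, with their regulator CIITA at 23.6 and the invariant chain CD74 at 23.05. The interferon genes MX1, IFIT1 and IFIT3 were at 10.4, 36.3 and 35.7, of which IFIT1 and IFIT3 lay just under the level.

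Genes silent in most adult tissue were largely at background. Of 21 cancer-testis genes, normally active in germ cells, 5 (23.8%) were above it. MAGEA6 was at 6165 and MAGEA12 at 1909, each on a single x-kind probe set that related MAGEA copies may share, and CTAG2 at 58.2, MAGEA1 at 57.95 and PRAME at 39.9 stood within the range of foreign genes. MAGEA4 was at 13.8, MAGEB2 at 17.4, MAGEC1 at 18.6, MAGEC2 at 12.9, GAGE1 at 0.771, PAGE1 at 9.69, PAGE4 at 21.3 and SSX1 at 13.7.

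Mesenchyme and fibroblast genes were above background in 4 of 28 cases (14.3%), with a median of 10.9. S100A4, a calcium-binding protein also made by tumor cells, was at 1039.9, TAGLN, an actin-binding protein, at 153, COL1A1 at 58.4 and FN1, fibronectin, at 50.9 on the brightest of 7 probe sets. VIM, the intermediate filament vimentin, was at 31.1 with neither probe set above the level. The factors that turn epithelial cells mesenchymal were at background too, with ZEB1 at 15.8, ZEB2 at 6.84, SNAI1 at 37.5, SNAI2 at 7.03, TWIST1 at 5.84 and TWIST2 at 8.02. SNAI1 lay just under the level. On the same array the epithelial cadherin CDH1 was at 3338 and the mesenchymal cadherin CDH2 at 14.8.

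The same calls were made on the 3 MTA arrays, each with the background level of its own foreign genes and without any ratio between arrays. The levels were 38.6, 42.8 and 40.8 at 6, 12 and 18 h, and 10748, 10035 and 10018 genes were above them. Of the 10182 genes called on the untreated array, 9457 (92.9%) were above background on all arrays. The other 725 had dim signals at 0 h, with a median of 50.9 and a highest value of 186.0. Within the lists, all 23 tight junction genes, 3 CEACAM genes, 29 methionine and polyamine genes and 41 ribosomal protein genes called at 0 h were called on every array. Named genes called at 0 h alone were CFTR at 51.7, LGR5 at 46.4, FOXA1, a pioneer factor of endoderm, at 85.7 and HBB, a globin of the foreign list, at 49.03, and all were within the range of foreign genes on the untreated array. Among 28 matrix attachment genes 25 kept the call on every array, and of 25 ion transport genes 22 did. With 1 array per condition, a call that differed between arrays cannot be told from the error of an array.

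**Figure D4:**
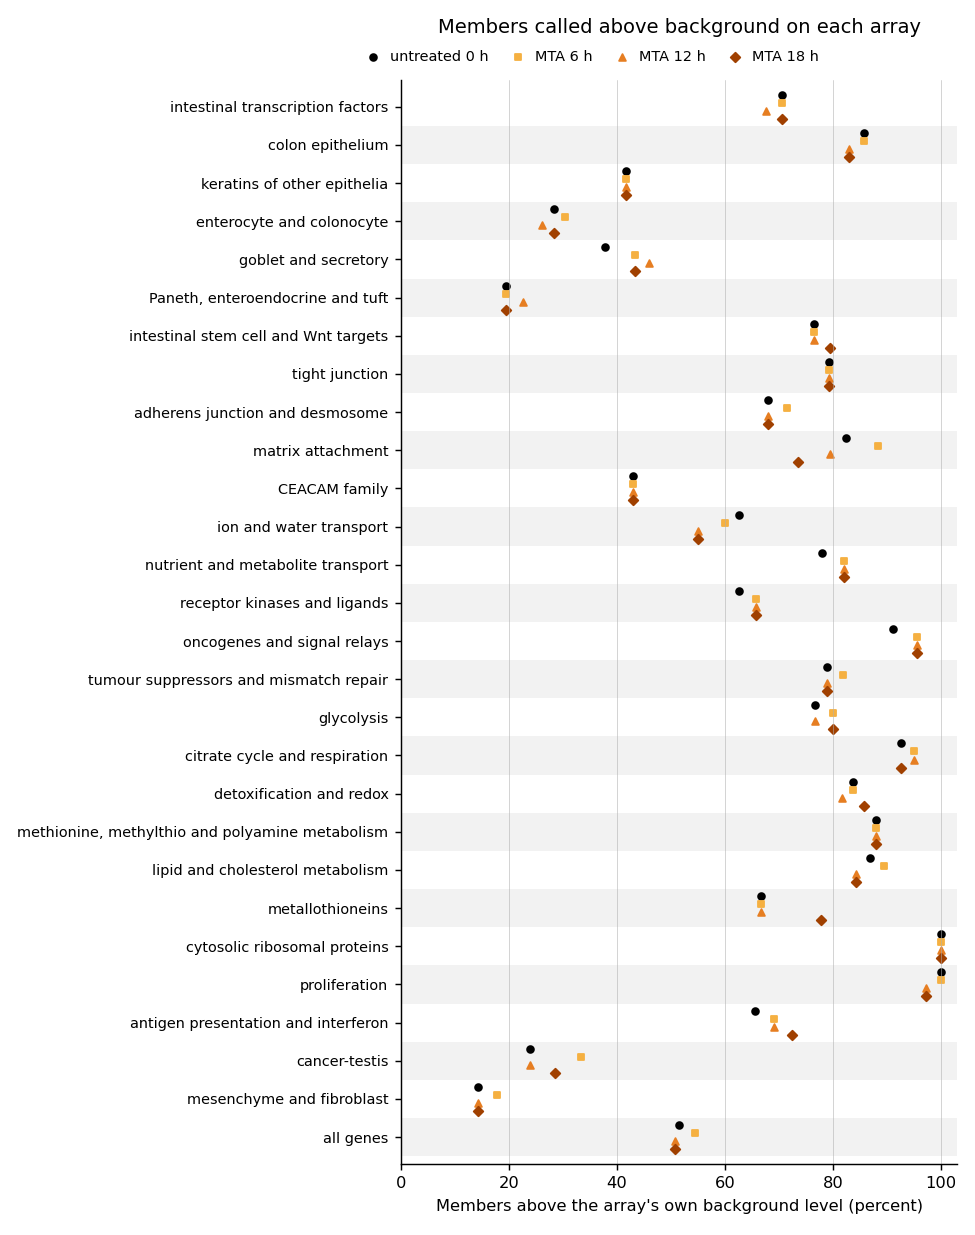
Percent of the measured members of each list (vertical axis) that were above the array's own background level (horizontal axis), for the untreated array (circles) and the arrays after 6 h (squares), 12 h (triangles) and 18 h (diamonds) in MTA. On the untreated array the shares run from 14.3% for mesenchyme to 100% for ribosomal proteins and proliferation, beside 51.5% of all genes.

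Agreement between probe sets of a gene was the only measure of error within the array. It holds probe affinity and transcript isoforms as well as noise. Of 10523 genes with more than 1 probe set, 2389 had every probe set above background, 3618 had none above it, and 4516 (42.9%) had probe sets on both sides. Between the 2 brightest probe sets of a gene the log2 signal differed with an SD of 2.73 and a median absolute difference of 1.46. Where both were above background (4604 genes), the SD was 1.77 and the median absolute difference 0.97. The signal given for a gene can therefore differ severalfold with the probe set that stands for it. Error between arrays or cultures was not measured. The number of probe sets went with the call, since 35.4% of genes with 1 probe set, 61.6% of those with 2 to 3 and 77.2% of those with 4 or more were above background.

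**Figure D5:**
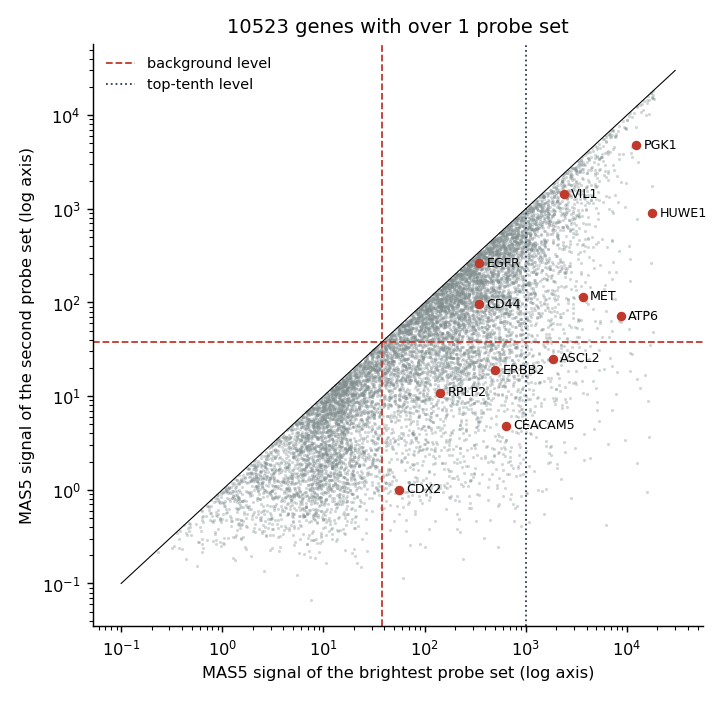
MAS5 signal of the second probe set (vertical log axis) against that of the brightest (horizontal log axis) for 10523 genes with more than 1 probe set on the untreated array, with the line of equal signal, the background level (dashed) and the start of the top 10% of genes (dotted). Named genes are in red. CDX2, CEACAM5, ASCL2, ERBB2 and RPLP2 lie below the horizontal dashed line, with a second probe set at background.

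Promoters, which the ranking did not use, were mostly rich in CpG where genes were bright. A RefSeq promoter was at hand for 13456 of 16521 protein-coding genes measured (81.4%). A CpG ratio of 0.6 or more was found in 89.8% of 1663 promoters of the top 10%, in 84.8% of 6530 promoters of the other genes above background, and in 70.4% of all. Genes not above background had a promoter in fewer than 80% of cases, so their share is not given. Ribosomal protein promoters reached 36 of 37 (97.3%), tumor suppressor and mismatch repair genes 26 of 30 (86.7%) and glycolysis genes 20 of 30 (66.7%). The lists of cancer-testis genes and of retina and sense organ genes had 7 of 19 (36.8%) and 6 of 21 (28.6%). Across all 13456 genes Spearman's rho between signal and CpG ratio was 0.42, and across the 8193 above background it was 0.14. Genes are not independent replicates, and the signals share 1 array.

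Of 12 short motifs searched on both strands, the ETS site CCGGAAGT was in 8 of 37 ribosomal protein promoters (21.6%). It was in 10.6% of promoters of the top 10%, 9.59% of the other genes above background and 6.72% of all. The letters CTTTCC, part of the pyrimidine tract at which ribosomal protein mRNAs start, were in 19 of 37 (51.4%) beside 26.5% of all. The Sp1 box GGGCGG was in 71.3% of promoters of the top 10%, 72.2% of the other genes above background and 62.2% of all. For the TATA box TATAAA these shares were 6.86%, 4.38% and 8.28%. Annotated gene length was also compared. The median length was 24.0 kb in the top 10%, 32.1 kb in the other genes above background and 18.8 kb in the rest, and rho with signal was 0.13 across all 19738 genes with a length and -0.03 across 10175 genes above background.

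By chromosome, the share of genes above background lay between 43.8% on chromosome 21 and 57.2% on chromosome 16. The median signal of the genes above background was highest on chromosome 13 at 572.5 and second highest on chromosome 20 at 433.3, and lowest on chromosome 19 at 163.3. Copy number was not measured.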

How the data were processed

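Total RNA of RCM-1 cells was labelled with a 3′ IVT Express kit and hybridised to Affymetrix U133 Plus 2.0 arrays, 1 per condition. For each array the authors deposited the MAS5 signal of every probe set, a linear intensity from Affymetrix Expression Console. Its version and scaling target were not given in the sources used here. The array manufacturer processed the arrays for the authors. MAS5 subtracts mismatch probes, which makes low values noisy.

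Here, 62 control probe sets were left out and the deposited scale was kept. Control transcripts spiked into the hybridisation gave signals of 329.1 to 557.9 (bioB), 990.5 to 1533 (bioC), 2066 to 5524 (bioD) and 13781 to 17514 (cre), and the tryptophan controls, not spiked, 0.709 to 7.35. Gene names came from GEO's annotation of the platform, whose symbols the RefSeq table (GRCh38.p14) left as they were. Of 54613 probe sets, 41091 had 1 symbol, 1801 several and 11721 none, and only those with 1 symbol were named. A gene took the signal of its brightest probe set. The background level was the 95th percentile over 111 measured genes of other tissues. Members, lists and tests were chosen with earlier results of these data known, and 6 gene families and 2 alternatives after the values were seen.

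The genes named were the 25 brightest with ribosomal proteins counted, up to 8 brightest members of each list and up to 8 members at background in list order, every member of a family of 12 or fewer, GAPDH and ACTB, markers of other cell types, and genes among these whose probe sets fell on both sides of the level. Claudins, SMAD4, MTAP, EGFR, CD44, AXIN2, LGR5, CFTR, members given to show both sides of the level and some others outside this rule were named after their values had been seen. Promoter shares are given only for groups with a promoter for at least 80% of genes. Signal was set against annotated gene length in place of protein length, because no protein table was used here. The calling steps were run on simulated signals in which silent genes, foreign or not, shared the same noise. That run could not show how often calls on the real array are wrong. No test, p-value or error over cultures could be had. Alternatives were percentiles of 90 and 98 for the background, the median or the dimmest probe set of a gene, plain probe sets only, each foreign tissue left out, the array median as background, and no x-kind probe sets. Calculations ran in Python 3.11.15 with pandas 2.3.3, SciPy 1.17.1 and NumPy 2.4.6, and matplotlib 3.10.9 drew the plots.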

Additional observations from a re-analysis of the deposited data

Results flagged for a closer look

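Probe sets without a single gene symbol took no part in the gene profile and also held signal. Of 11721 probe sets with no symbol in the annotation, 1788 (15.3%) were above the background level of the untreated array, up to a signal of 16732. Of 1801 probe sets with several symbols, 885 (49.1%) were above it, up to 20594, which was the highest signal of the array. They are unnamed here, and which transcripts they measured was not tested. With 1 array per condition, no group allowed a check for outlying samples.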

How the results depend on the processing

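The number of genes above background was 10182. It was 11506 and 8687 with the 90th and the 98th percentile, 9618 by the median and 7154 by the dimmest probe set of a gene, 8431 of 16782 genes with plain probe sets only, 9770 to 10790 with a foreign tissue left out, and, among alternatives added after the values were seen, 12257 with the array median as background and 10085 of 19356 without x-kind probe sets. All lay within 1.5 times of the first count. Except with the array median, however, the level was set anew from the foreign genes each time. It was 26.2 by the median and 21.1 by the dimmest probe set, 22.7 with plain probe sets and 33.7 without x-kind ones. Held at 38.3, the dimmest probe set was above the level for 2389 of 10523 genes with more than 1 probe set and 3277 of 9252 with 1. Among the 27 lists, the number of members called moved by more than 1.5 times for 1 list with the 90th percentile, 2 with the 98th, 8 by the dimmest probe set, 9 with plain probe sets, 5 with the array median and 2 without x-kind probe sets, where fewer members were measured. With plain probe sets 17 of 24 ribosomal protein genes were called, and with the dimmest probe set 22 of 45 oncogenes and signal relays. Metallothioneins fell to 0 of 4 with plain probe sets and without x-kind ones. The CEACAM family rose to 4 of 7 when neuron or blood genes were left out of the background and to 5 of 7 with the array median, above the share of all genes. By the dimmest probe set, receptor kinases fell to 8 of 32, below the share of all genes, and other keratins and goblet genes, with 5 of 12 and 14 of 37, came to lie above it. No paired analysis was possible because each condition had 1 array. Signals near the background level of 38.3 cannot be told from those of genes of other tissues.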

Other observations

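Some gene families outside the lists held bright members and were chosen after their values had been seen. Their counts stand beside the 51.5% of all genes above background, to which several of them are close. Kallikreins are secreted serine proteases, and 9 of 14 measured were above background. KLK6 had a signal of 5289, KLK10 of 5234, KLK5 of 1063, KLK11 of 750.3 and KLK8 of 255, and of the prostate members KLK3 was at 158 on an x-kind probe set, with its others at 1.91 and 1.66, and KLK2 at 11.9. KLK10 rested on probe sets at 5234 and 119. Annexins, which bind membranes with calcium, were above background in 9 of 11 cases, with ANXA2 at 12600.1, ANXA1 at 4207, ANXA4 at 3686, ANXA11 at 3519 and ANXA5 at 1988. ANXA7 was at 1929, ANXA3 at 1903, ANXA6 at 623 and ANXA9 at 157. ANXA13, an annexin of the intestine, was at 21.1 and ANXA10 of the stomach at 1.93.

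Of 11 organic anion transporters, 5 were above background. SLCO4A1 was at 1335 with its other probe set at 4.93, and SLCO1B3, a carrier of normal hepatocytes also found in colorectal tumors, at 1327. SLCO1B1, its liver neighbour, was near the level at 41.6, SLCO3A1 was at 172 and SLCO2B1 at 66.8. SLCO2A1, SLCO4C1, SLCO1A2, SLCO1C1, SLCO6A1 and SLCO5A1 were at background, at 10.2, 8.57, 6.298, 4.998, 1.82 and 1.38. Among genes with a BMP symbol, grouped here by name only, 3 of 11 were above background. These were BMP4 at 3267, BMP7 at 568 on 4 of 4 probe sets and BMP8B at 64.6. BMP3, which is often silenced in colorectal tumors, was at 2.36 and BMP2 at 34.8. BMP1, BMP6, BMP15, BMP5, BMP8A and BMP10 were also at background, at 35.3, 15.8, 14.1, 13.2, 5.02 and 4.43. All 7 genes of the mitochondrial genome measured were above background, and 6 were in the top 10%. ND6 was at 154, COX3 at 1039, ATP6 at 8736, ND2 at 10349, COX1 at 10508, ND4 at 14688 and COX2 at 17405. Of 7 MAGEA genes, MAGEA6, MAGEA12 and MAGEA1 were above the level, at 6165, 1909 and 57.95, and MAGEA4, MAGEA11, MAGEA10 and MAGEA8 were at 13.8, 11.001, 1.75 and 1.42.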
